A study of Homo sapiens with 11 samples.

Results

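CSNK1E and CSNK1D were described here through the enriched RNA windows that carried their names in eCLIP of the ribosomal protein RPS19. eCLIP crosslinks protein to RNA in cells, immunoprecipitates the protein and sequences the RNA fragments that come down with it. A window was taken when CSNK1E or CSNK1D was among its gene names in the authors' list of reproducibly enriched windows for wild-type RPS19 (WT), R62W or R101H. The genes were chosen by their number of listed windows, so that number is a description and no finding. This gave 212 of the 15402 WT windows, 238 of the 86567 R62W windows and 177 of the 93331 R101H windows, or 319 of 122708 distinct windows over the 3 lists. CSNK1E had 166 of the 319 distinct windows and CSNK1D had 153, and each of these windows named that gene alone.

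All samples were crosslinked HEK293T cells, an established human embryonic kidney line. The 3 WT, 3 R62W and 2 R101H samples were immunoprecipitates (IP) with an antibody to the V5 tag, from cells transfected with a plasmid for V5-tagged RPS19 that was wild type or carried the named substitution. The 3 size-matched inputs came from cells without a plasmid, so transfection differed between every IP and its input. Recovery with RPS19 and a change in the amount of a transcript in transfected cells therefore cannot be told apart in these bulk samples. Whether replicates of these 11 samples were separate cultures is not stated, and p-values therefore reflect the spread between the samples only, technical or not. R62W and R101H are Diamond-Blackfan anemia variants, and the comparisons address how each alters the RNA recovered with RPS19.

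CSNK1E and CSNK1D encode casein kinase 1 epsilon and delta, closely related serine/threonine kinases that are active in most cell types. Both phosphorylate PER proteins of the circadian clock and Dishevelled proteins of Wnt signalling. Casein kinase 1 also phosphorylates assembly factors of the maturing small ribosomal subunit, the particle that contains RPS19. CSNK1E lies on the minus strand of chromosome 22 (RefSeq span 38290691 to 38318084, GRCh38) and CSNK1D on the minus strand of chromosome 17 (82239019 to 82273750), so the 5′ end of each transcript has the highest coordinate.

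A stretch of the CSNK1E leader is shown because it lies in a 5′ UTR window (38317346 to 38317439) that was listed with both substitutions and not with WT. Of the listed windows of either gene, it is the stretch for which a sequence could be read from RefSeq (chr22:38317404-38317433, minus strand, GRCh38.p14, 30 bases, 90.0% G and C, lower case throughout).
CSNK1E 5′ leader: gagagcgcgcgagccggcggcgggggcggg
The window holding it had log2 odds ratios of IP over input of 0.91, 1.05 and 1.17 in the 3 R62W replicates and of 1.20 and 1.48 in the 2 R101H replicates. Its reads were the third highest IP count of the gene in both lists, at 894 IP and 245 input reads in R62W and 832 and 162 in R101H. The R101H values lay above all 3 R62W values. The difference was 0.29 (SE 0.31) at a limma adjusted p of 1.0 and did not pass the test.

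Each list was made from all replicates of its group and held windows whose highest q was under 0.2 and that passed in at least 2 replicates. That was every replicate for R101H, but 2 of 3 for WT and R62W, so the rule was stricter for R101H. Reads per listed window were few: the median IP count was 49, 47 and 48 and the median input count 11, 12 and 11 for WT, R62W and R101H, and library totals are not in the tables used here. Counts, and the lowest, mean and highest log2 odds ratio, cover only the replicates in which a window passed, so a count of 2 replicates and one of 3 are not on the same footing. A window that a list leaves out has no value there, and its absence is not a measured 0. Among member windows the least certain ones were close to the limit in every list, with a highest q of 0.199, 0.197 and 0.193 for CSNK1E and of 0.197, 0.194 and 0.199 for CSNK1D (WT, R62W and R101H). No values exist for windows just outside it.

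With wild-type RPS19, most listed windows of both kinase genes were intronic. This is a share of listed windows and not of all reads recovered. Of the IP reads in listed WT windows, introns held 7772 of 9706 for CSNK1E and 4462 of 7798 for CSNK1D. CSNK1E had 112 WT windows, of which 95 (84.8%) were intronic, 14 lay in the 3′ UTR, 2 in non-coding exons and 1 in coding sequence. CSNK1D had 100, with 74 (74.0%) intronic, 14 in the 3′ UTR, 11 in coding sequence and 1 in a non-coding exon. Over all genes 31.4% of WT windows were intronic. By number of windows CSNK1E ranked 3 and CSNK1D ranked 7 of the 3307 genes listed in WT. These counts are what the members were chosen on, so they carry no test.

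The substitution lists held fewer intronic windows of CSNK1E. It had 1 window more in R62W (113) than in WT, but only 67 (59.3%) were intronic. In R101H it had 76 windows and 28 (36.8%) were intronic. Meanwhile its coding windows went from 1 in WT to 12 in R62W and 14 in R101H, and its 3′ UTR windows from 14 to 29 and 28. CSNK1D had 83 intronic windows of 125 (66.4%) for R62W and 57 (56.4%) for R101H, with 15 and 17 coding and 22 and 22 3′ UTR windows. Its R101H share depended on the rule, at 45.5% with a highest q of at most 0.05, 35.9% with at least 10 input reads, 27.3% with lists of equal length and 32.3% without splice site windows. The intronic share over all genes was 13.5% in R62W and 10.7% in R101H. CSNK1E ranked 38 of 7780 genes in R62W and 107 of 8133 in R101H, and CSNK1D ranked 29 and 50. With 1 list per group, differences in these counts could not be tested, and windows of 1 transcript are not independent, so no interval is given.

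**Figure D1:**
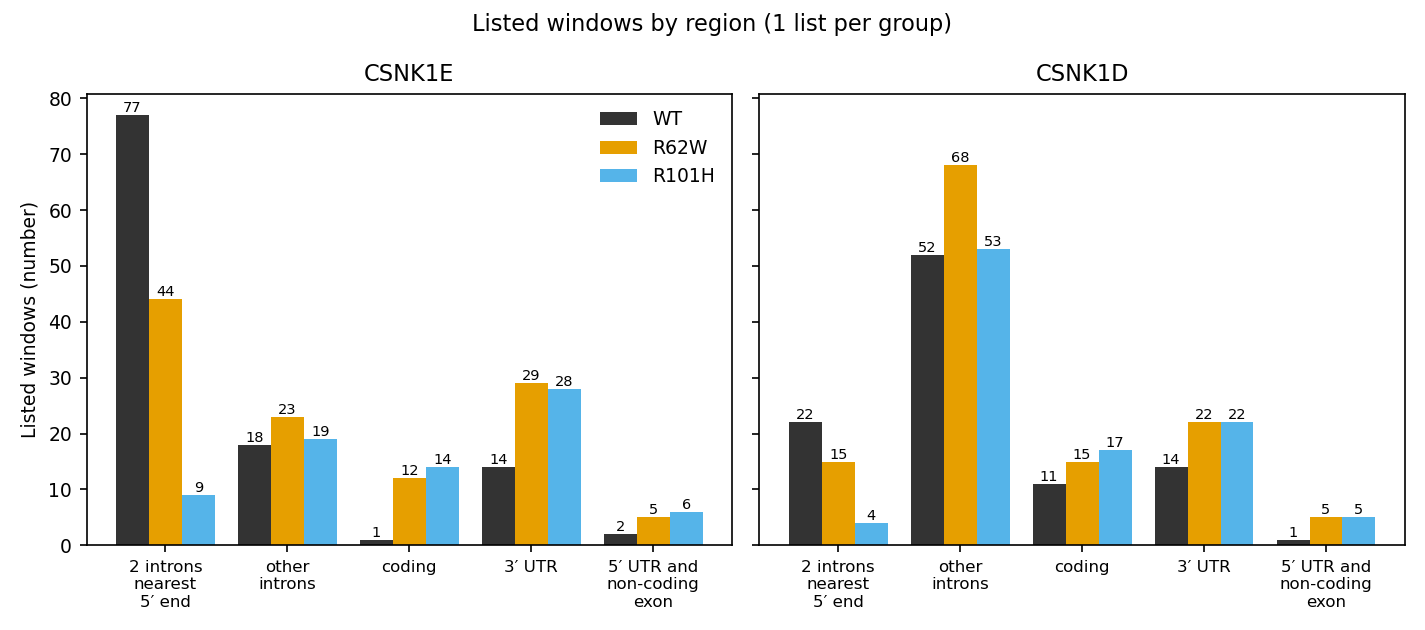
Number of listed windows (vertical axis) by region of CSNK1E (left) and CSNK1D (right) in the WT, R62W and R101H lists. Each bar is a count from 1 list per group, with no error bar. The 2 introns nearest the 5′ end of CSNK1E went from 77 windows in WT to 44 in R62W and 9 in R101H, while the other introns had 18, 23 and 19 in CSNK1E and 52, 68 and 53 in CSNK1D.

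Most CSNK1E windows of WT that a substitution list left out lay in its 2 introns nearest the 5′ end, 37 of 42 for R62W and 68 of 79 for R101H. These are the leader intron, between the 5′ UTR exon and the exon with the start codon, and the intron that follows the start codon exon. They were identified from the order of the annotated features in the files. Together they held 77 of the 95 WT intronic windows (81.1%), 44 of 67 in R62W (65.7%) and 9 of 28 in R101H (32.1%). The remaining introns of CSNK1E had 18, 23 and 19 windows.

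The leader intron (38314170 to 38317159, 2990 bases) was covered almost end to end with WT. It held 26 WT windows over 86.7% of its length, 26 R62W windows over 86.6% and 5 R101H windows over 16.7%. Windows that passed in every replicate numbered 20, 16 and 5. The longest unbroken run of the gene in WT was here, 20 adjoining windows from 38315167 to 38317159 whose means ran from 1.50 to 3.98 with a median of 2.33. In R62W the longest run was also here, with 9 windows from 38315267 to 38316161 and a median of 2.03. In R101H the longest run of the gene was at its other end, with 7 windows from 38293255 to 38293748 that span intron, coding sequence and 3′ UTR.

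The strongest CSNK1E window over the 3 lists was in the leader intron, at 38316560 to 38316659. Its log2 odds ratios were 2.51, 3.12 and 6.32 in WT, 2.84, 3.03 and 5.29 for R62W and 2.20 and 4.93 for R101H. The lowest, mean and highest log2 odds ratios and the highest q are those of the authors' deposited tables, and the middle value of 3 was derived from them. The 3 groups overlapped over nearly their whole range. The pooled input held 8, 8 and 4 reads against 94, 75 and 33 IP reads, and the difference from WT was -0.26 (SE 1.10, limma adjusted p = 0.976) for R62W and -0.42 (SE 1.25, limma adjusted p = 0.867) for R101H.

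Outside these 2 introns, the highest CSNK1E windows common to all lists lay near splice sites in the 3′ part of the gene. At 38300166 to 38300223 the values were 2.30 and 5.11 in WT, 2.62 and 4.0 for R62W and 1.20 and 4.28 for R101H, with 2, 2 and 6 input reads. At 38294887 to 38294960 they were 2.66 and 3.60, then 1.44, 2.76 and 4.19, then 1.47 and 4.32, with 5, 12 and 8 input reads. The groups overlapped at both sites.

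In the intron after the start codon exon (38303249 to 38314081, 10833 bases), most WT windows were already missing from the R62W list. WT had 51 windows over 46.8% of its length, R62W had 18 over 16.5% and R101H had 4 over 3.67%. Windows that passed in every replicate numbered 21, 5 and 4 there. That rule asked for 3 replicates in WT and R62W but for 2 in R101H, where it removed no window. R62W and R101H therefore cannot be compared under it. Of the 51 WT windows, 16 recurred in R62W and 4 in R101H. Of the 26 leader intron windows in WT, 24 recurred in R62W and 5 in R101H. Windows of the leader intron were the more GC-rich, with a median G and C content of 60.3% against 52.5% in the start codon intron and 56.0% in the other introns.

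**Figure D2:**
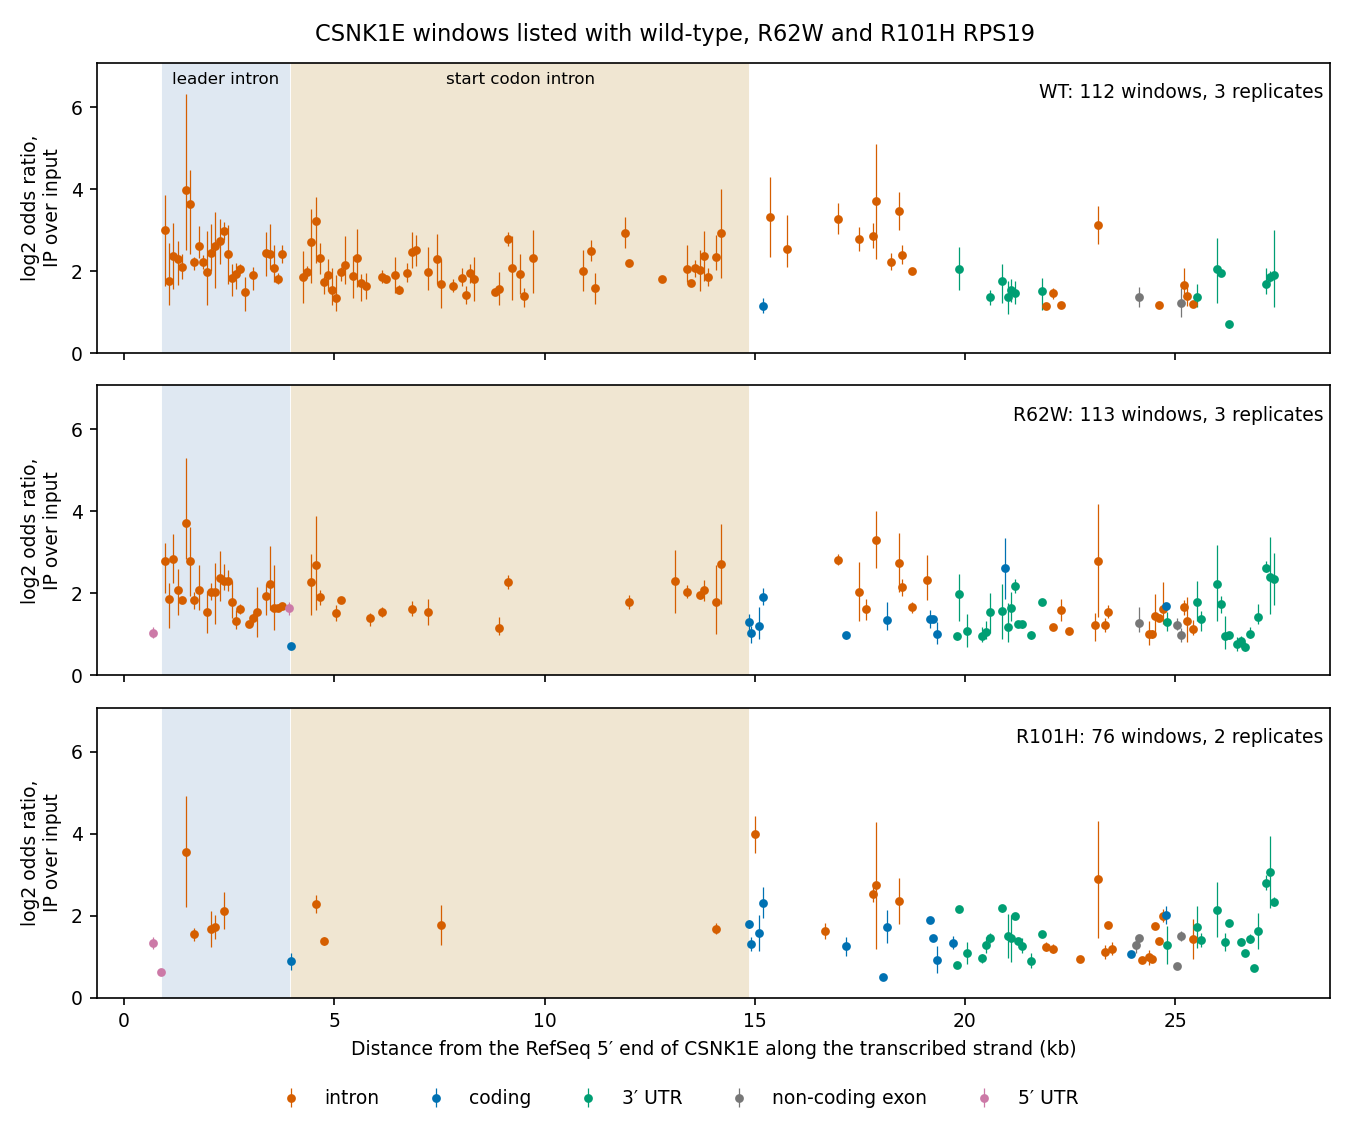
Log2 odds ratio of IP over input (vertical axis) of every listed CSNK1E window against the distance in kb from the 5′ end (horizontal axis), in WT (top), R62W (middle) and R101H (bottom). Points are means over the replicates in which a window passed, bars run from the lowest to the highest of them, and shading marks the leader intron and start codon intron, which hold 26 and 51 windows in WT, 26 and 18 for R62W and 5 and 4 for R101H.

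CSNK1D had most of its intronic windows away from the 5′ end. Its introns nearest the 5′ end were sparsely listed in WT already, with 12 windows in the start codon intron (82265797 to 82273305, 7509 bases) and 10 in the next one (82255578 to 82265685, 10108 bases). R62W listed 7 and 8 windows there and R101H listed 1 and 3. Counting windows that passed in every replicate, the start codon intron had 2 in WT, 2 in R62W and 1 in R101H. The next intron then had 0, 1 and 3. With 0 in WT, no fall could show in the next intron under that rule, and too few windows were left in the start codon intron to read one. The other introns, in the 3′ part of the gene, held 52 of its 74 WT intronic windows, 68 in R62W and 53 in R101H. Of those 52 windows, 92.3% were also listed in R62W and 78.8% in R101H. As in CSNK1E, most WT windows that a substitution list left out lay in the 2 introns nearest the 5′ end. They were 15 of 19 for R62W and 20 of 32 for R101H.

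CSNK1D had its longest run of adjoining windows in this 3′ part in all 3 lists. In WT it was 7 windows of intron and coding sequence (82250879 to 82251527, median 2.25). In R62W it was 23 intronic windows (82246140 to 82248374, median 2.15, highest 4.11). In R101H it was 14 windows from intron through the stop codon into the 3′ UTR (82243724 to 82245020, median 2.58).

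Several CSNK1D windows had high and similar values in every list. A window beside a 5′ splice site (82252334 to 82252433) had 3.24 and 4.81 in the 2 WT replicates that passed, 3.39 and 5.05 in R62W and 3.53 and 4.81 in R101H, with 1 input read in each list. An intronic window at 82248181 to 82248277 had 3.02, 3.88 and 5.06 in WT, 2.13, 4.55 and 5.64 for R62W and 2.57 and 5.31 for R101H. The last listed 3′ UTR window (82242667 to 82242762) had 3.49 and 4.67, then 3.18, 3.84 and 6.25, then 2.70 and 6.29. In all 3 windows the groups overlapped. The highest CSNK1D mean in WT was 4.56 (4.33 and 4.79) in a window beside a 5′ splice site at 82251279 to 82251378, which had 4.43 and 4.44 in R62W, was not listed in R101H and had no input read in either list.

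**Figure D3:**
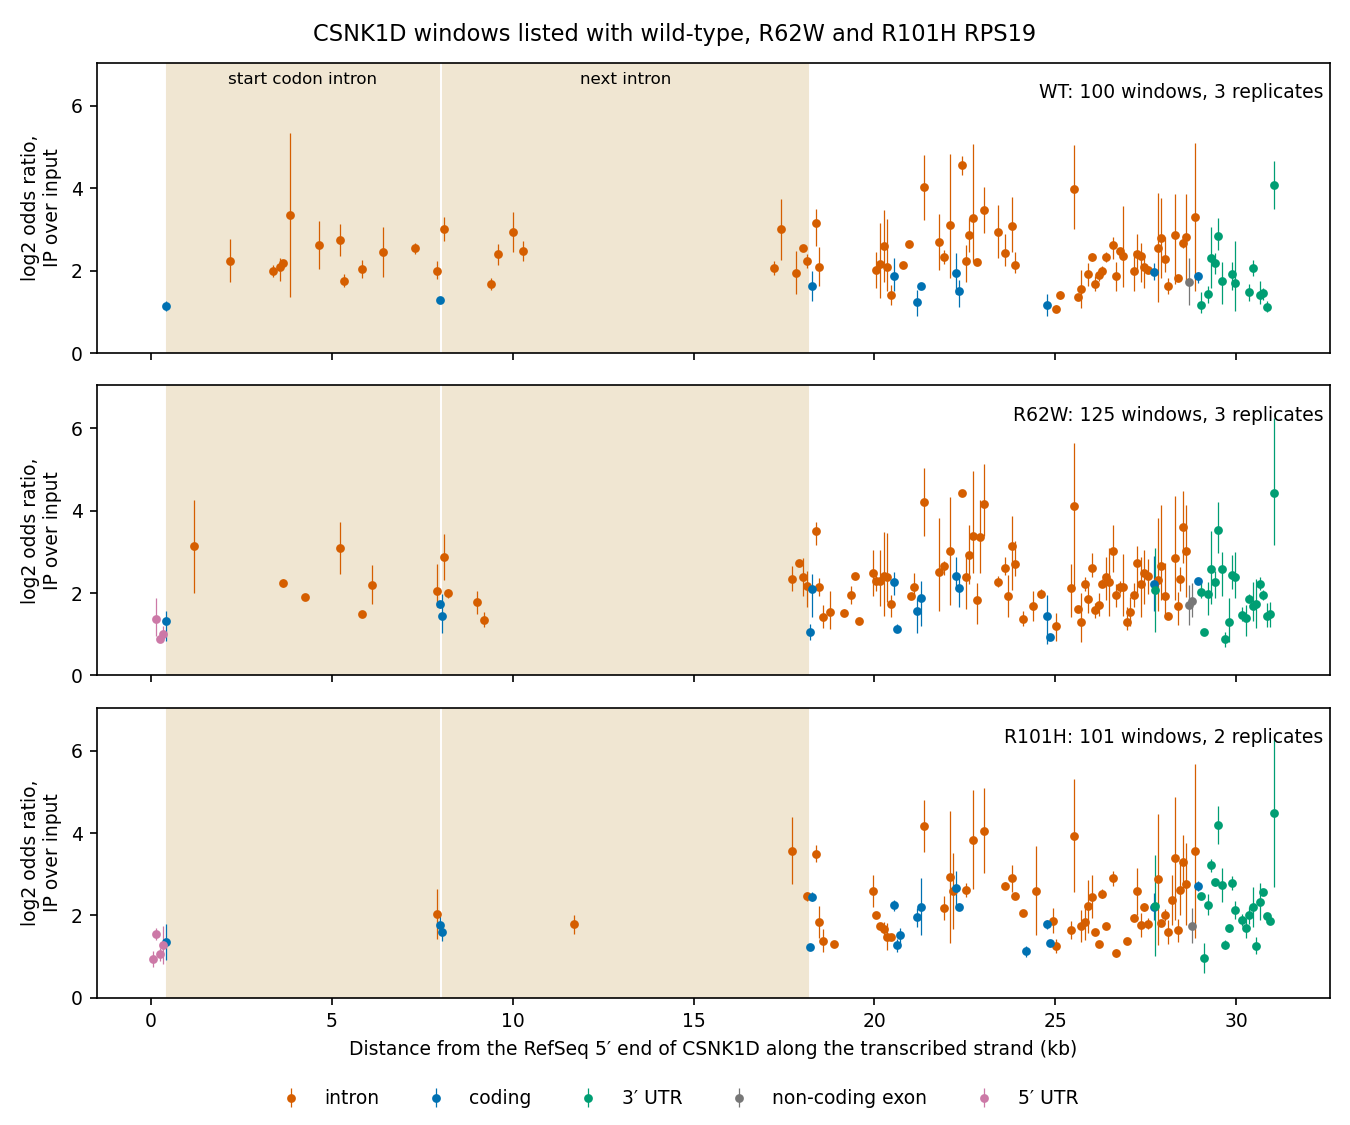
Log2 odds ratio of IP over input (vertical axis) of every listed CSNK1D window against the distance in kb from the 5′ end (horizontal axis), in WT (top), R62W (middle) and R101H (bottom). Points are means over the replicates in which a window passed, bars run from the lowest to the highest of them, and the shaded start codon intron and next intron hold 12 and 10 windows in WT, 7 and 8 for R62W and 1 and 3 for R101H, while most windows lie in the 3′ part.

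Counted over the whole gene, fewer WT windows of CSNK1E than of CSNK1D recurred in the substitution lists. Of the CSNK1E WT windows, 70 (62.5%) were also in R62W and 33 (29.5%) in R101H, at identical coordinates. For CSNK1D it was 81 (81.0%) and 68 (68.0%). Over all genes, 79.6% of WT windows were also in R62W and 72.0% in R101H. Seen from the longer lists, 61.9% of the R62W and 43.4% of the R101H windows of CSNK1E were in WT, 64.8% and 67.3% of those of CSNK1D, and 14.2% and 11.9% of those of all genes.

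Within introns the picture depended on the substitution. Of 95 intronic CSNK1E windows in WT, 53 (55.8%) recurred in R62W and 17 (17.9%) in R101H, against 48.7% and 33.7% of all intronic WT windows. The R62W share was thus near that of introns in general and the R101H share was below it. Of 74 intronic CSNK1D windows, 74.3% and 58.1% recurred. Exonic windows recurred almost completely in both genes. All 14 of the 3′ UTR windows of CSNK1E in WT were in R62W and 13 in R101H, all 14 of CSNK1D were in both, and all 11 coding windows of CSNK1D were in both, where all genes had 95.2% and 93.2% for 3′ UTR and 93.9% and 89.9% for coding windows.

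Most CSNK1E windows were absent from at least 1 list. WT and R62W alone shared 41 windows, WT alone had 38, R62W and R101H alone shared 32, and 29 were in all 3 lists. In the start codon intron lay 33 of the 38 windows found with WT alone. Of the 32 listed with both substitutions and not WT, 30 lay downstream of the start codon intron. For CSNK1D, 67 of 153 windows were in all 3 lists, 24 in both substitutions alone and 18 in WT alone.

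Where a window was listed in both R62W and WT, enrichment of CSNK1E introns was mostly lower with R62W. The median difference in log2 odds ratio (R62W minus WT) over its 53 shared intronic windows was -0.34, and 48 of them were lower. Over all shared intronic windows the median was -0.09 and 57.7% were lower. The difference had about the same size in the leader intron (median -0.39, 22 of 24 lower), the start codon intron (-0.41, 15 of 16) and the other introns (-0.28, 11 of 13). CSNK1D introns were balanced, with a median of 0.06 and 31 of 55 windows higher. Over all shared windows the median was 0.26. Relative to it the intronic medians were -0.61 for CSNK1E and -0.20 for CSNK1D, so the sign for CSNK1D depends on the centring. Neighbouring windows of 1 transcript are not independent, and these counts of windows carry no test.

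Single windows did not pass the test. With limma over the 12263 windows shared by R62W and WT, 0 member windows and 0.0% of all windows were called at an adjusted p of 0.05, and at an unadjusted p of 0.05 the count was 2 of 70 for CSNK1E and 2 of 81 for CSNK1D against 10.2% of all windows. Fisher's exact test on pooled reads, which compares libraries and not conditions, called 23 of 58 member windows against 61.1% of all 2672 windows it tested. Lower in R62W were 11 of 18 CSNK1E intronic windows, and higher were 7 of 7 CSNK1D 3′ UTR windows. The share called by region was not counted over all genes. By log2 odds ratio, 681 of 712 3′ UTR windows of all genes that passed in every replicate were higher in R62W. Of their 542 intronic windows 255 were lower. A higher 3′ UTR is thus general and no trait of CSNK1D. The lowest CSNK1E difference was in the start codon intron (38311198 to 38311296), with 2.07, 2.40 and 2.95 in WT and 1.44 and 1.81 in R62W. The groups did not overlap there, and the difference was -0.85 (SE 0.37, limma adjusted p = 0.514).

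Exonic windows leaned the other way. CSNK1D coding windows had a median difference of 0.39 and 11 of 11 were higher in R62W, and its 3′ UTR had 0.51 with 13 of 14 higher. The CSNK1E 3′ UTR had 0.23 with 10 of 14 higher, and -0.03 after centring. Windows annotated as 3′ UTR in CSNK1E lay on both sides of its coding window at 38293287 to 38293319. Their differences ran from -0.22 to 0.92 nearer the 3′ end and from -0.19 to 0.72 on the other side. Over all genes the medians were 0.33 for coding and 0.36 for 3′ UTR windows, with 4139 of 5178 and 2564 of 3138 higher. The exonic values of both kinases were thus close to those of other transcripts. In the CSNK1E window with the largest increase (38290883 to 38290978, near the 3′ end), WT had 1.45, 1.56 and 2.08 and R62W had 2.52, 2.54 and 2.80. The groups did not overlap there and the difference was 0.92 (SE 0.28, limma adjusted p = 0.396). The CSNK1D window with the largest increase was intronic (82245186 to 82245258), with 2.54 and 2.79 in WT and 2.74 and 4.48 in R62W. The groups overlapped there, and R62W minus WT was 0.94 (SE 0.65, limma adjusted p = 0.692). Its largest decrease was -0.67 (SE 0.53, limma adjusted p = 0.743) in another intronic window (82250297 to 82250393).

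Raw reads over the same input gave the same order. The log2 odds ratios rest on these same reads, so this is a restatement and no separate support. In windows with equal input counts and equal numbers of passing replicates in WT and R62W, IP counts were lower in R62W in 25 of 27 CSNK1E intronic windows, with a median ratio of R62W to WT of 0.67. That included 14 of 15 leader intron windows (0.74) and 7 of 7 start codon intron windows (0.65). CSNK1D introns had 17 windows higher and 18 lower of 36, with a median ratio of 1.0. Its 3′ UTR had 7 of 7 higher (1.46) and its coding sequence 5 of 5 (1.26). Over all genes the median ratio was 0.84 for 998 intronic, 1.25 for 1327 coding and 1.33 for 898 3′ UTR windows. Of these, 681 intronic windows were lower in R62W, and 942 coding and 690 3′ UTR windows were higher. These ratios are not scaled to library depth, so only their order between regions can be read.

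**Figure D4:**
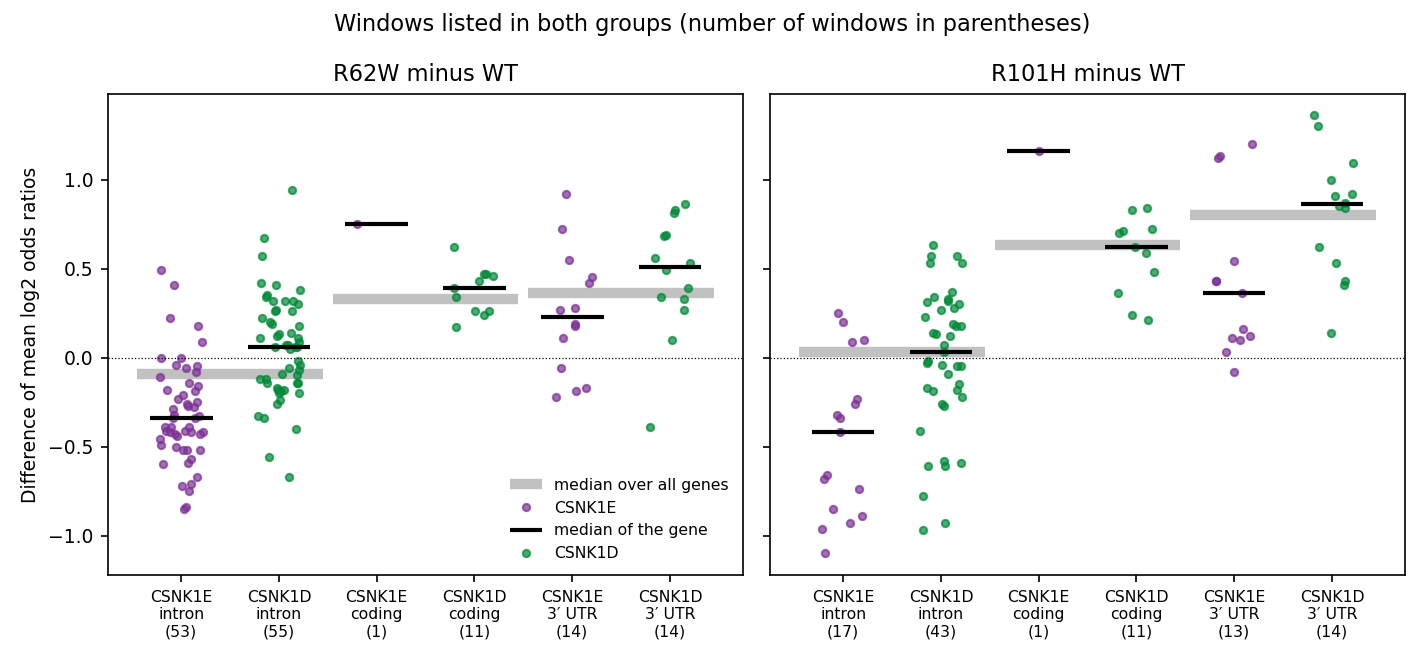
Difference of mean log2 odds ratios (vertical axis) for windows listed in both groups, R62W minus WT (left) and R101H minus WT (right), by gene and region. Points are windows, black lines the medians of a gene and grey bars the medians over all genes. CSNK1E introns have medians of -0.34 and -0.42, below the grey bars at -0.09 and 0.03, while CSNK1D introns have 0.06 and 0.03.

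R101H and WT shared 33 CSNK1E and 68 CSNK1D windows. The 17 shared CSNK1E intronic windows had a median difference (R101H minus WT) of -0.42, with 13 lower, against 0.03 over all shared intronic windows, of which 48.3% were lower. All 5 shared leader intron windows were lower, with a median of -0.74. CSNK1D introns had a median of 0.03 with 22 of 43 higher. In exons, CSNK1D had 11 of 11 coding windows higher (median 0.62, all genes 0.63) and 14 of 14 3′ UTR windows higher (0.86, all genes 0.80). CSNK1E had 12 of 13 3′ UTR windows higher, with a median of 0.36. This median pools windows on both sides of the coding window at 38293287 to 38293319. Differences ran from 0.10 to 1.20 nearer the 3′ end and from -0.08 to 0.54 on the other side. Centred on the median of 0.60 over all shared windows, the CSNK1E 3′ UTR median turned to -0.24. With that centring the intronic medians were -1.02 for CSNK1E and -0.57 for CSNK1D, and the CSNK1D coding median was 0.02. Before centring, 4369 of 4955 coding and 2818 of 3072 3′ UTR windows of all genes were higher in R101H. This comparison uses the same WT samples as the one before, so the 2 sets of values are not independent.

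At an adjusted p of 0.05, limma called 0 members and 0.0% of the 11082 windows shared by R101H and WT. At an unadjusted p of 0.05 there were 3 CSNK1E and 4 CSNK1D windows, against 21.3% of all windows, and Fisher's exact test on pooled reads called 22 of 48 members against 77.1% of all 2730 windows. It had 7 of 9 CSNK1E intronic windows lower in R101H, and 7 of 7 3′ UTR and 5 of 5 coding windows of CSNK1D higher. The share it called by region was not counted over all genes here either, so these counts have no like share beside them. By log2 odds ratio, 706 of 723 3′ UTR and 876 of 925 coding windows of all genes that passed in every replicate were also higher. Of their 566 intronic windows 278 were lower. When limma was limited to windows that passed in every replicate of both groups, it called 18.2% of 2730 windows and 1 member. That window is in the CSNK1D 3′ UTR just after the stop codon (82244684 to 82244780). It had 0.98, 1.01 and 1.49 in WT, 1.88, 1.95 and 2.24 for R62W and 2.40 and 2.52 for R101H, and none of the 3 groups overlapped. Its R101H minus WT difference was 1.30 (SE 0.33, limma adjusted p = 0.0479) in that fit and did not pass over all shared windows (SE 0.36, limma adjusted p = 0.162). The median difference of all 3′ UTR windows in that fit was 1.15, so its size was near the general one.

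The stop codon window beside it (82244781 to 82244831) had the highest coding value of CSNK1D in R101H. It had 1.71, 1.92 and 1.97 in WT, 2.28, 2.29 and 2.31 for R62W and 2.58 and 2.83 for R101H, again with no overlap between groups. The R101H minus WT difference was 0.84 (SE 0.34, limma adjusted p = 0.225). Coding windows of all genes that passed in every replicate, as this one did, had a median difference of 1.03. The largest increase of CSNK1D was in its 3′ UTR (82244204 to 82244299), where WT had 2.50, 2.72 and 3.29, R62W had 2.98, 3.39 and 4.21 and R101H had 3.72 and 4.66. R101H lay above WT without overlap, and the difference was 1.36 (SE 0.45, limma adjusted p = 0.177). Its largest decrease was -0.97 (SE 0.69, limma adjusted p = 0.440) in a window annotated near a 5′ splice site (82245776 to 82245875).

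CSNK1E had its largest R101H increase and decrease at opposite kinds of site. Its highest 3′ UTR mean and its increase were at 1 site (38290787 to 38290882), with 1.73 and 2.0 in WT, 1.50, 2.36 and 3.38 for R62W and 2.18 and 3.94 for R101H. R101H lay above WT there and overlapped R62W, and the R101H minus WT difference was 1.20 (SE 0.65, limma adjusted p = 0.329). The decrease was in a window annotated near a 5′ splice site (38299615 to 38299704), with 3.0 and 3.93 in WT, 2.04 and 3.47 for R62W and 1.80 and 2.93 for R101H. R101H lay below WT, on 21 IP and 4 input reads against 33 and 2, and the difference was -1.10 (SE 0.58, limma adjusted p = 0.315).

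Between the 2 substitutions, both genes had values close together. R101H and R62W shared 61 CSNK1E windows (54.0% of R62W, 80.3% of R101H) and 91 CSNK1D windows (72.8% and 90.1%), where all genes had 69.2% and 64.2%. CSNK1E had R101H minus R62W medians of -0.09 for introns, 0.33 for coding and 0.03 for 3′ UTR windows, and CSNK1D had -0.09, 0.19 and 0.36. Over all genes they were 0.06, 0.21 and 0.28, and centring on the overall median of 0.21 turned the CSNK1E 3′ UTR to -0.18 and the CSNK1D coding sequence to -0.02. Coding windows were higher in R101H in 10 of 11 for CSNK1E and 14 of 15 for CSNK1D, against 24381 of 33463 over all genes.

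Of the 59874 windows shared by R101H and R62W, limma called 0.0% at an adjusted p of 0.05 and 0 members. At an unadjusted p of 0.05 it had 1 CSNK1E and 0 CSNK1D windows against 1.8% of all windows, and Fisher's exact test on pooled reads called 7 of 123 members against 2.71% of all 34309 windows. The 1 CSNK1E window was in the 3′ UTR (38291747 to 38291842), with 0.89, 0.98 and 1.07 in R62W and 1.82 and 1.84 in R101H. R101H lay clear of R62W, by a mean of 0.85 (SE 0.30, limma adjusted p = 1.0). The largest CSNK1D difference, 1.22 (SE 0.63, limma adjusted p = 1.0), was in its next intron, annotated near a 3′ splice site (82255978 to 82256077), where R62W had 2.05 and 2.65 and R101H 2.76 and 4.38. In the other direction the extremes were -0.57 (SE 1.09) for CSNK1E at 38300166 to 38300223 and -0.91 (SE 0.58) for CSNK1D at 82253345 to 82253444, both with a limma adjusted p of 1.0.

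Some of the highest CSNK1E values were present in 1 list and rested on few input reads. Its highest R101H window (38303038 to 38303109, annotated beside a splice site) had 3.53 and 4.44, which rested on 21 IP reads with no input read, and was not listed in WT or R62W. Its highest coding window, at a stop codon annotation (38297105 to 38297155), had 1.86 and 3.36 in R62W alone on 22 IP and 3 input reads. The single coding window of CSNK1E in WT (38302861 to 38302934) had 0.97 and 1.35, against 1.73, 1.86 and 2.13 for R62W and 1.95 and 2.70 for R101H. WT lay below both substitutions there without overlap, but neither the difference of 0.75 (SE 0.31, limma adjusted p = 0.493) for R62W nor that of 1.16 (SE 0.46, limma adjusted p = 0.226) for R101H passed the test. In the CSNK1D 5′ UTR the highest window (82273557 to 82273643) had 0.97, 1.29 and 1.87 in R62W and 1.40 and 1.69 in R101H, and was not in the WT list.

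Median enrichment by region followed the counts in part. Listed in the order WT, R62W and R101H, the intronic medians were 2.05, 1.80 and 1.69 for CSNK1E and 2.33, 2.25 and 2.18 for CSNK1D. The median over all intronic windows was higher in each list, at 2.79, 2.30 and 2.31. CSNK1D 3′ UTR windows had 1.72, 1.97 and 2.22, and those of CSNK1E had 1.61, 1.31 and 1.45. Listed windows differ between groups, so these medians describe the lists and not the same RNA in each group.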

How the data were processed

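eCLIP libraries of 11 HEK293T samples were analysed from 1 table of enriched windows per IP group. Per the submitters' processing notes, fastp and STAR were used with GRCh38. Their versions, the window caller and the inputs behind each list were not given in the sources used here, and no library totals are in the tables. The deposited IP and input columns are read counts per window which, from the values, cover the replicates in which it passed. The log2 columns hold the lowest, mean and highest log2 odds ratio of IP over input, per the file headers. The p-values and q-values were deposited with them. The deposited G and C content is a fraction per window, and another deposited column is the number of passing replicates.

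The members and the lists of related genes were chosen with earlier results of these data known. Windows were grouped by annotated feature, with splice site windows counted as introns, and coordinates were written 1-based. With 3 values the lowest, mean and highest fix the middle one, and with 2 they are both values. limma 3.58.1 under R 4.3.3 (lmFit, eBayes) compared these values, which carry no replicate number, over every window present in both lists. Its p-values were adjusted by Benjamini-Hochberg over all of them, with a threshold of 0.05, and it was tested on simulated data. Counts, overlaps and medians used Python 3.11.15 and pandas 2.3.3. A count model could not be fitted to pooled counts. Alternatives were every-replicate windows, a highest q of 0.05, at least 10 input reads, lists of equal length, centring, Fisher's exact test, overlap by 1 base and introns without splice site windows.

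Windows named are, per gene, those with the highest mean in each list or region, the ends of the longest run, up to 3 windows with the highest mean over all lists, and the largest difference each way. The exceptions, chosen after their values were seen, are the CSNK1E leader window, the CSNK1E coding window in WT and the 1 window called in every-replicate data. The tables' input counts at 20 or more reads had a median WT to R62W ratio of 1.0 where 3 replicates passed in both and of 0.61 where 2 passed in WT and 3 in R62W.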

Additional observations from a re-analysis of the deposited data

How the results depend on the processing

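Counts of listed windows moved with stricter rules in most lists. The exception, within 1.5 times, was CSNK1E with at least 10 input reads. The R101H list already required both of its replicates, so the every-replicate rule could not change it. Likewise the equal-length rule could not change WT, so neither says that a count held. With windows passing in every replicate CSNK1E had 51 in WT and 69 in R62W, and CSNK1D 33 and 79. With a highest q of at most 0.05 (WT, R62W, R101H) CSNK1E had 24, 40 and 41 and CSNK1D 26, 59 and 66. With at least 10 input reads CSNK1D had 52, 79 and 64. With lists of equal length CSNK1E had 30 in R62W and 25 in R101H, and CSNK1D 48 and 33. The CSNK1E intronic share fell from WT to R62W to R101H in each of these, at 84.3%, 44.9% and 36.8% for every-replicate windows and 84.8%, 30.0% and 12.0% at equal length. That of CSNK1D was 63.6%, 53.2% and 56.4%, then 74.0%, 52.1% and 27.3%, and 53.8%, 49.4% and 35.9% with at least 10 input reads. Without splice site windows the R101H share was 18.6% for CSNK1E and 32.3% for CSNK1D. Counting overlap by 1 base gave the same numbers of recurring windows as identical coordinates.

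Calls over all genes for R62W minus WT were 1 with every-replicate windows, 1 with at least 10 input reads and 1632 by Fisher's exact test on pooled reads, with 23 members by Fisher's test. For R101H minus WT they were 498, 654 and 2106, with 1, 1 and 22 members. For R101H minus R62W Fisher's test called 929, with 7 members. Centring subtracted 0.26, 0.60 and 0.21 in the 3 comparisons. Medians then were -0.03 for the CSNK1E 3′ UTR and -0.20 for CSNK1D introns (R62W minus WT), -1.02 for CSNK1E introns, -0.24 for its 3′ UTR, and -0.57, 0.02 and 0.26 for CSNK1D introns, coding and 3′ UTR (R101H minus WT), and -0.18 for the CSNK1E 3′ UTR and -0.02 for CSNK1D coding windows (R101H minus R62W). Stricter rules leave fewer windows by construction, and other causes were not tested.

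No paired analysis was possible because the columns carry no replicate numbers, and leaving out each replicate was not run for the same reason. Many intronic windows rest on few input reads, with a median per passing replicate in WT of 5.5 for CSNK1E and 3.5 for CSNK1D, so single-window values are imprecise.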

Other observations

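Other casein kinase transcripts had far fewer WT windows than CSNK1E or CSNK1D. Because those 2 genes were chosen by their number of listed windows, this gap follows from the choice and is no finding. Of the 5 other CK1 family genes, 2 were listed in WT, 3 in R62W and 4 in R101H, with 14, 41 and 48 windows. CSNK1G2, the gamma 2 isoform, had most of them (13, 33 and 35), and 11 of its 13 WT windows were intronic against 4 in R62W and 3 in R101H. The 4 genes of casein kinase 2, an unrelated kinase with a shared historical name, had 4, 30 and 35 windows and none of the 4 WT windows was intronic. Of the 5 CK1-like kinases, 0 were listed in WT and 3 in each substitution.

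Genes of pathways in which casein kinase 1 takes part were also counted, whether or not their proteins are its substrates. Of 12 Wnt pathway genes, 10 were listed in WT and 11 in each substitution, with 75, 290 and 324 windows. CTNNB1, which encodes beta-catenin, had 29, 33 and 33. Of 11 circadian clock genes 1 was listed in WT and 4 in each substitution. Of 7 assembly factors of the small ribosomal subunit 0 were listed in WT, 5 in R62W and 7 in R101H. TSR1 had 27 and 23 windows with R62W and R101H, and LTV1 had 11 and 12. Of 8 FAM83 genes, which encode anchors of casein kinase 1, 2 were listed in WT and 3 in each substitution. Of 10 genes beside the members, 1 was listed in WT and 2 in each substitution, with DDX17 at 16, 49 and 50 windows. In these lists limma called 0 windows in each of the 3 comparisons. It also called 0.0% of all windows in each, so that count says nothing particular about these genes. No window was named for the readthrough gene TPTEP2-CSNK1E. The WT list was shorter than the others over all genes, and the part of list length in these counts was not tested.

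Of 39 genes with at least 50 WT windows, those nearest to CSNK1E in the ratios of windows between lists and in the intronic share of WT windows were REXO1 (79, 77 and 47 windows, distance 0.21), PI4KAP1 (0.22), PLXNB2 (0.37), BBC3 (0.49) and STK11 (0.50). The distance is Euclidean, over the 2 log2 ratios and the share. Nearest to CSNK1D were SCRIB (91, 124 and 96 windows, distance 0.20), SKI (0.26), PTBP1 (0.30), PLXNB2 (0.40) and CSNK1E (0.66).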
